A study of Homo sapiens with 8 samples.

Results

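In all, 47 human genes of the glutathione, thioredoxin and NADPH systems were followed through 8 RNA-seq libraries. They are the 47 genes whose symbol in the deposited table of 46427 genes equals a name on a fixed list, which holds the regulators NFE2L2 and KEAP1, glutathione synthesis and recycling, glutathione peroxidases and transferases, thioredoxins and peroxiredoxins, glutaredoxins, superoxide dismutases and catalase, quinone reductase, NADPH-forming enzymes and export pumps. Of the 47 members, 46 passed the filter on low counts, as did 17044 genes in all. GPX7, an endoplasmic reticulum peroxidase, had 0 counts in every library and was not tested. The libraries came from RPE-1, a telomerase-immortalised (hTERT) human retinal pigment epithelial cell line. All-trans-retinal (atRAL), the aldehyde that light exposure frees from visual pigment, was given at 25 µM, and extracellular vesicles (EV), membrane particles released by tonsil mesenchymal stem cells, at 2000000000 particles per ml, to 2500000 cells. After 1 h and after 6 h there was 1 library each of control cells, cells with EV, cells with atRAL and cells with atRAL plus EV. No condition was repeated and the labels name no separate cultures, so the p-values reflect nothing beyond how these libraries scatter, which may be technical.

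Glutathione is a small thiol made from glutamate, cysteine and glycine. It feeds peroxidases that reduce hydrogen peroxide and lipid peroxides, and transferases that join it to reactive aldehydes and other electrophiles, whose conjugates leave the cell through ABCC pumps. Thioredoxin and the peroxiredoxins form a parallel peroxide-reducing chain. Both chains draw their electrons from NADPH, which the pentose phosphate pathway, malic enzyme and isocitrate dehydrogenase regenerate. The transcription factor NRF2, encoded by NFE2L2, is held down by KEAP1 until electrophiles modify KEAP1, and then drives many of these genes through antioxidant response elements. Retinal pigment epithelium handles retinaldehyde and phagocytosed lipids and is known for high exposure to oxidants.

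RefSeq promoter windows (GRCh38.p14, 250 bases before to 50 after a start site) were at hand for 38 of the 47 members, in 54 windows. The core letters of the antioxidant response element, TGACNNNGC on either strand, lay in the windows of 10 of those 38 members (26.3%) and in those of 16.1% of the 27305 genes that have such windows. Of the 20 matched members that were called higher after 6 h of atRAL 7 held it, as did 3 of the 15 that were not called and 0 of the 2 called lower. The 10 were GCLM, TXNRD1, ME1, IDH1, PGD, GSTO1, MGST1, GSTP1, GSTA4 and KEAP1. GPX8 alone among the members held TGATGNAA, the core of the element bound by ATF4 with C/EBP factors (4.46% of genes), on either strand. GSTP1, ME1 and OSGIN1 held the AP-1 letters TGANTCA (9.37% of genes), which can overlap TGACNNNGC. A match describes letters in these windows and is neither a site nor a cause. The 250 bases before the start of 3 members with large changes after atRAL are shown because each carries 1 such core, in capitals, wholly before the start, 5′ to 3′ on the gene's strand. They are GCLM at chr1:93909431-93909680 (minus strand), with the core 34 bases before the start and in reverse complement, TXNRD1 at chr12:104215529-104215778 (plus strand), with the core 99 bases before the start, and ME1 at chr6:83431052-83431301 (minus strand), with the core 137 bases before the start.
GCLM: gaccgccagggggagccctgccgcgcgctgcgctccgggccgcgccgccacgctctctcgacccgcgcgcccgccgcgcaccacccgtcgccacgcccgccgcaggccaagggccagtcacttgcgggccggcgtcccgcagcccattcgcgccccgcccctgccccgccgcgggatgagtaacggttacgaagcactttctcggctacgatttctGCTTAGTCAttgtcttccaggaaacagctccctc
TXNRD1: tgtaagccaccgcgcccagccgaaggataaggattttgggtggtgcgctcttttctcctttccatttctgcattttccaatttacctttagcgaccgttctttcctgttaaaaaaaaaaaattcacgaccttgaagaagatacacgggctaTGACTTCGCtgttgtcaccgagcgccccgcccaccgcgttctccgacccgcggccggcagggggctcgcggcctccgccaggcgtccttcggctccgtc
ME1: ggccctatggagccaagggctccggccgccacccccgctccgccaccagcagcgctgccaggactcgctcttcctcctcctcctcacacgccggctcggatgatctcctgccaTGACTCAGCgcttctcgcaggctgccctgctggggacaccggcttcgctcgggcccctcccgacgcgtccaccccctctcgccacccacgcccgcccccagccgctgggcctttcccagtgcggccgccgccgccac

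Total counts ran from 45566237 (atRAL, 1 h) to 71822269 (EV, 6 h), and 3 counts correspond to 0.0408 to 0.0657 CPM (counts scaled by TMM to a common total). The members together held 0.43% to 0.453% of the counts in the 6 libraries other than the 6 h libraries with atRAL. They held 0.653% with atRAL at 6 h and 0.571% with atRAL plus EV at 6 h. Markers of pigment epithelium summed to 54.7 to 81 TPM (transcripts scaled for length), with TTR and TYR at 0 in all libraries and RPE65 and RLBP1 at or near 0. RDH5 (22.9 to 29.4 TPM), OTX2 (10.5 to 32.2 TPM) and MITF (14.8 to 23.2 TPM) of the same list were detected. Epithelial keratins were abundant (1520 to 1830 TPM for the list, mainly KRT8 and KRT18). Other epithelial markers of that list were not: CDH1 and EPCAM were at or near 0, and CLDN1 read 0.631 to 2.53 TPM. Of the mesenchymal list, CXCL12 and COL1A2 were at or near 0, and ENG read 0.368 to 0.903 TPM. Mesenchymal markers, mainly VIM, summed to 6750 to 8090 TPM, endothelial markers to 0.528 to 1.48 TPM and immune markers, nearly all CD68, to 127 to 142 TPM, with MS4A1 at 0. In bulk RNA, fewer cells expressing a gene and less RNA per cell cannot be told apart.

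The members spanned more than 3 orders of magnitude on the TPM scale, as the plot of levels shows. GSTP1, a transferase that conjugates many electrophiles, had the highest median level, 922 TPM (881 to 1040). PRDX1, GPX4, TKT, PRDX5, GPX1, TXNRD1, PRDX2 and TXN followed with medians of 485 to 333 TPM. Neighbours among these 8 had overlapping ranges, so their order is not resolved. GCLC and GCLM, the subunits of the enzyme that starts glutathione synthesis, stood near the low end, with medians of 10.7 and 13 TPM, and OSGIN1 at 10.2 TPM. ABCC3 (3.13 TPM) and ABCC2 (0.312 TPM) were the lowest detected members. OSGIN1, GCLM, SRXN1, GCLC, ABCC2 and TXNRD1, which had the widest ranges for their medians, each had their highest levels in the 6 h libraries with atRAL.

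**Figure D1:**
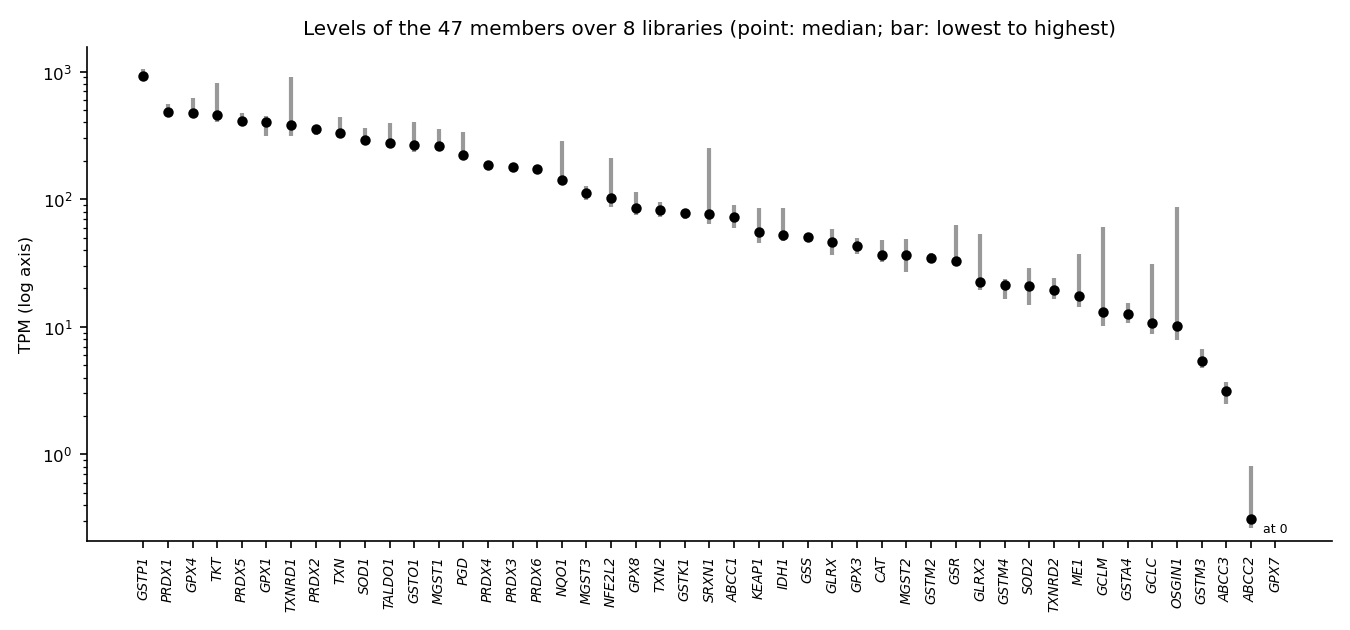
Levels of the 47 members in TPM on a log axis; points are medians and bars the lowest to highest of 8 libraries. GSTP1 has the highest median (922 TPM), and long upward bars mark members such as OSGIN1 (7.89 to 87 TPM) and TXNRD1 (314 to 902 TPM).

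After 6 h of atRAL, 22 of the 46 tested members were higher and 4 were lower. They were called by edgeR's quasi-likelihood test at a Benjamini-Hochberg adjusted p under 0.05 over all 17044 genes, with the atRAL libraries (with and without EV) against the others. Over all genes tested, 15.9% were called higher and 14.2% lower. The members' median log2 change was 0.24, beside -0.01 over all genes. After 1 h, edgeR called 0 members in either direction (all genes: 0.00587% called higher and 0% lower), and DESeq2 and limma-voom also called 0. By edgeR, 0 members and 323 of the 17044 genes had an unadjusted p under 0.05. At 1 h the changes ran from -0.14 to 0.22. The 26 calls at 6 h became 15 when the 1 h control, the 1 h EV or the 1 h atRAL library was dropped. They became 16 when 1 h atRAL plus EV was dropped and 17 in the 6 h libraries alone. The shares over all genes fell too. Without 1 h control, 1 h EV or 1 h atRAL, 10.3% of all genes were called higher and 8.12% to 8.26% lower. The shares were 10.8% and 8.76% without 1 h atRAL plus EV, and 12.8% and 10.2% in the 6 h libraries alone. Below, levels per library are CPM in the order control, EV, atRAL, atRAL plus EV, changes are log2 fold changes ± SE from 2 libraries against 2, and adjusted p-values are from the same test.

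**Figure D2:**
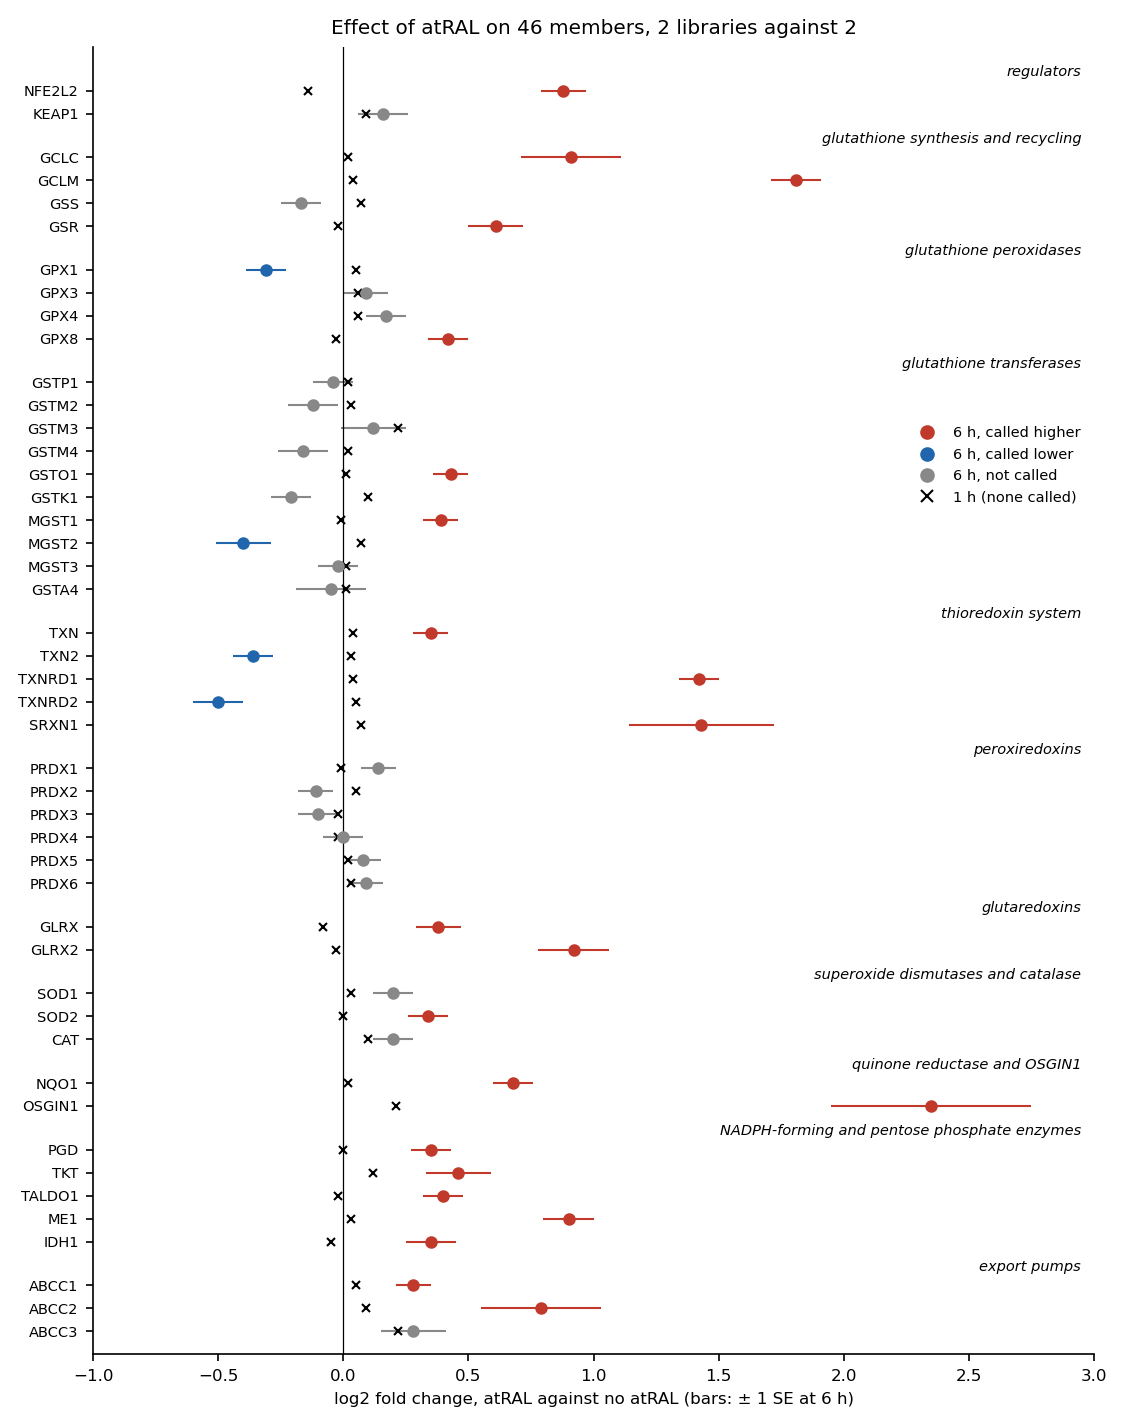
Change with atRAL for the 46 tested members by role, as log2 fold change on the horizontal axis; circles with bars are 6 h values ± 1 SE coloured by call, and crosses are 1 h values. The 6 h values reach 2.35 (OSGIN1), while all 1 h values lie between -0.14 and 0.22.

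Of the pair of regulators, NFE2L2 rose and KEAP1 did not pass the test. NFE2L2 (chr2:177230303-177264727, GRCh38.p14) read 106, 94.2, 210 and 160 CPM at 6 h, both atRAL libraries above both others, a change of 0.88 ± 0.09 (adjusted p = 4.1e-04). Its levels at 1 h were 99.8, 129, 96.2 and 111 CPM, highest in the EV library. KEAP1, the adaptor that marks NRF2 for degradation, read 67.5, 63.8, 85.1 and 63.5 CPM at 6 h and 52.2, 47.8, 51.3 and 54.9 CPM at 1 h. Only its library with atRAL alone stood above the others at 6 h, and the change was 0.16 ± 0.10 (adjusted p = 0.27).

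Of the 4 genes of glutathione synthesis and recycling 3 rose, led by the modifier subunit. GCLM (chr1:93885199-93909430), the regulatory subunit of glutamate-cysteine ligase, read 30, 30.5, 120 and 94.4 CPM at 6 h, and 21.5, 22.9, 21.5 and 24.1 CPM at 1 h. The atRAL libraries of 6 h stood far above the other 6, and the change was 1.81 ± 0.10, or 3.51-fold (adjusted p = 4.5e-05). GCLC (chr6:53497341-53545101), the catalytic subunit, read 18, 18.2, 45.8 and 25.3 CPM at 6 h and 14, 14.2, 13.6 and 15 CPM at 1 h. The groups did not overlap at 6 h, but the library with atRAL plus EV lay well below that with atRAL alone, and the change was 0.91 ± 0.20 (adjusted p = 0.021). GSR (chr8:30678066-30727846), which reduces oxidised glutathione with NADPH, read 41.7, 39.1, 75 and 50.8 CPM at 6 h and 41.4, 38.4, 40.8 and 37.7 CPM at 1 h, a change of 0.61 ± 0.11 (adjusted p = 0.006). GSS, which adds glycine in the last step of synthesis, ranged from 36.5 to 41.9 CPM over the 8 libraries and was not called (-0.17 ± 0.08, adjusted p = 0.12). Dropping any single 1 h library ended the GCLC call (adjusted p up to 0.061), as did fitting the 6 h libraries alone (adjusted p = 0.074). With 6 h control or 6 h atRAL dropped, the 6 h effect rests on 1 pair of libraries, atRAL plus EV against EV. There GCLC changed by 0.47 and GSR by 0.38.

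The glutathione peroxidases did not move together. GPX8, an endoplasmic reticulum peroxidase, rose, from 126 and 118 CPM without atRAL at 6 h to 164 and 163 CPM with it (0.42 ± 0.08, adjusted p = 0.0057). At 1 h its 4 libraries read 130, 130, 135 and 120 CPM. GPX1, the abundant cytosolic peroxidase, fell by 0.31 ± 0.08 (adjusted p = 0.025), with 162, 153, 140 and 115 CPM at 6 h. Dropping any single 1 h library, 6 h EV or 6 h atRAL plus EV ended the GPX1 call (adjusted p up to 0.14). GPX4, which reduces lipid peroxides within membranes, and the secreted GPX3 were not called (0.17 ± 0.08 and 0.09 ± 0.09).

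Of the 10 glutathione transferases, 7 were not called, 2 rose and 1 fell, and their median change was -0.05. GSTO1 (chr10:104254173-104267455), an omega-class transferase with thiol reductase activity, read 76.6, 97.2, 101 and 134 CPM at 6 h and 88.2, 85.7, 86.7 and 88 CPM at 1 h. It was highest with both agents and rose by 0.43 ± 0.07 with atRAL (adjusted p = 0.0037). The microsomal MGST1 went from 97.8 and 98.9 CPM to 129 and 129 CPM at 6 h (0.39 ± 0.07, adjusted p = 0.0053), having read 98.2, 100, 97.8 and 98.4 CPM at 1 h. MGST2, another microsomal member, fell by 0.40 ± 0.11 (adjusted p = 0.026), with 11.6, 11.6, 9.52 and 8.12 CPM at 6 h after 13.1, 13.6, 13.2 and 15 CPM at 1 h. Dropping any single 1 h library, 6 h EV or 6 h atRAL plus EV ended that call (adjusted p up to 0.14), and DESeq2 did not make it (adjusted p = 0.067). GSTM4 was not called for atRAL and read 13.6, 12.9, 13.7 and 13.1 CPM at 1 h and 11.8, 10.2, 10.2 and 9.43 CPM at 6 h. GSTP1, the most abundant member, changed by -0.04 ± 0.08. GSTM2, GSTM3, GSTM4 and their neighbour GSTM1 are close copies on chromosome 1, so the split of reads among them is uncertain.

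All 5 genes of the thioredoxin system were called, in opposite directions for the cytosolic and the mitochondrial pair. TXNRD1 (chr12:104215779-104350307), the cytosolic thioredoxin reductase, rose from 473 and 491 CPM without atRAL to 1220 and 1360 CPM with it at 6 h. Its 1 h libraries read 544, 583, 574 and 583 CPM, and the change at 6 h was 1.42 ± 0.08, or 2.67-fold (adjusted p = 3.8e-05). TXN, the cytosolic thioredoxin, read 93.3, 103, 117 and 133 CPM at 6 h and rose by 0.35 ± 0.07 (adjusted p = 0.0086). TXNRD2 (chr22:19875522-19941818), the mitochondrial reductase, read 23.2, 20.6, 16.8 and 14.2 CPM at 6 h and 20, 17.2, 19.2 and 19.1 CPM at 1 h. It fell by 0.50 ± 0.10 at 6 h (adjusted p = 0.0064), with no overlap between the groups. Its partner TXN2 read 50.7, 52.7, 40.6 and 39.8 CPM at 6 h and 45.2, 44.6, 45.2 and 46.7 CPM at 1 h, and fell by 0.36 ± 0.08 (adjusted p = 0.0097). SRXN1 (chr20:646615-653200), sulfiredoxin, which repairs over-oxidised peroxiredoxins, read 64.3, 84.7, 250 and 158 CPM at 6 h and 68, 78.6, 70.4 and 83.3 CPM at 1 h. Its change was 1.43 ± 0.29 (adjusted p = 0.035), a call that ended when any single 1 h library was dropped (adjusted p up to 0.072) and in the 6 h libraries alone (adjusted p = 0.096). With 6 h control or 6 h atRAL dropped it was 0.90.

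None of the 6 peroxiredoxins, the substrates of that chain, was called by edgeR at 6 h, and their changes ran from -0.11 to 0.14. PRDX1, the most abundant, read 183, 190, 195 and 217 CPM at 6 h and 188, 193, 191 and 188 CPM at 1 h (0.14 ± 0.07 at 6 h, adjusted p = 0.17). PRDX4, the endoplasmic reticulum form, stayed between 68.8 and 75.3 CPM over the 8 libraries. The 2 glutaredoxins, which remove glutathione from protein thiols, both rose. GLRX2 (chr1:193096465-193106114) read 6.52, 8.68, 14.4 and 14.1 CPM at 6 h and 6.01, 5.82, 5.61 and 5.96 CPM at 1 h, a change of 0.92 ± 0.14 (adjusted p = 0.0024). GLRX rose by 0.38 ± 0.09 (adjusted p = 0.018), a call that ended when any single 1 h library, 6 h EV or 6 h atRAL plus EV was dropped (adjusted p up to 0.11).

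SOD2, the mitochondrial manganese superoxide dismutase, rose, and SOD1 and catalase were not called. SOD2 read 53.3, 49.4, 71.2 and 59.7 CPM at 6 h and 53, 51.2, 54.4 and 50 CPM at 1 h, a change of 0.34 ± 0.08 (adjusted p = 0.013). The call ended when 1 h control, 1 h EV, 1 h atRAL, 6 h control or 6 h atRAL was dropped (adjusted p up to 0.082), and with length-scaled values (adjusted p = 0.19 on log2(FPKM + 1)). SOD2 overlaps WTAP and 3 other genes of the table. On the TPM scale its 6 h libraries without atRAL read 24.5 (control) and 15.8 (EV), a wider gap than in CPM. SOD1 and CAT, which removes hydrogen peroxide in peroxisomes, each changed by 0.20 ± 0.08 (adjusted p = 0.10 and 0.11).

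OSGIN1 showed the largest change of any member. OSGIN1 (chr16:83953240-83966332), an oxidative stress-induced growth inhibitor, read 8.26, 7.84, 65.6 and 25.1 CPM at 6 h and 6.7, 6.32, 6.29 and 8.91 CPM at 1 h. Both atRAL libraries stood above the rest, that with EV far below that without, and the change was 2.35 ± 0.40, or 5.08-fold (adjusted p = 0.025; 0.069 in the 6 h libraries alone). NQO1 (chr16:69709401-69726560), which reduces quinones with NADPH or NADH, read 167, 149, 281 and 226 CPM at 6 h and 140, 147, 145 and 146 CPM at 1 h (0.68 ± 0.08, adjusted p = 7.2e-04).

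All 5 NADPH-forming and pentose phosphate members rose, by 0.35 to 0.90. ME1 (chr6:83210402-83431051), cytosolic malic enzyme, read 22.8, 19.5, 47.9 and 32.5 CPM at 6 h and 23, 23.4, 24 and 23.4 CPM at 1 h (0.90 ± 0.10, adjusted p = 7.2e-04). TALDO1, transaldolase, read 133, 139, 186 and 173 CPM at 6 h and 135, 128, 127 and 132 CPM at 1 h (0.40 ± 0.08, adjusted p = 0.0078). PGD, which forms NADPH from 6-phosphogluconate, read 215, 217, 297 and 254 CPM at 6 h and 199, 196, 197 and 198 CPM at 1 h (0.35 ± 0.08, adjusted p = 0.015). TKT, transketolase, differed from these: it read 555, 494, 935 and 554 CPM at 6 h, so the library with atRAL plus EV lay just below the control, and the change was 0.46 ± 0.13 (adjusted p = 0.038). IDH1, cytosolic isocitrate dehydrogenase, read 54.2, 45.9, 77.9 and 51.4 CPM and likewise overlapped (0.35 ± 0.10, adjusted p = 0.029). At 1 h TKT read 522, 503, 564 and 549 CPM and IDH1 50.7, 48.9, 48.9 and 47.3 CPM. The calls of PGD, TKT and IDH1 ended when any single 1 h library, 6 h control or 6 h atRAL was dropped (largest adjusted p 0.12, 0.26 and 0.29). With 6 h control or 6 h atRAL dropped the changes were 0.23, 0.16 and 0.16, and with 6 h EV or 6 h atRAL plus EV dropped they were 0.46, 0.75 and 0.52.

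Among the export pumps, ABCC1 and ABCC2 were called higher and ABCC3 was not (0.28 ± 0.13, adjusted p = 0.14). ABCC2 read 0.992, 0.798, 1.86 and 1.26 CPM at 6 h and 0.736, 0.654, 0.745 and 0.727 CPM at 1 h, a change of 0.79 ± 0.24 at a low level (adjusted p = 0.042). ABCC1, the main glutathione conjugate pump of many tissues, changed by 0.28 ± 0.07 (adjusted p = 0.022). Dropping any single library of the 8 ended the ABCC2 call (adjusted p up to 0.25). For ABCC1 the same held for any 1 h library, 6 h control and 6 h atRAL (adjusted p up to 0.14).

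**Figure D3:**
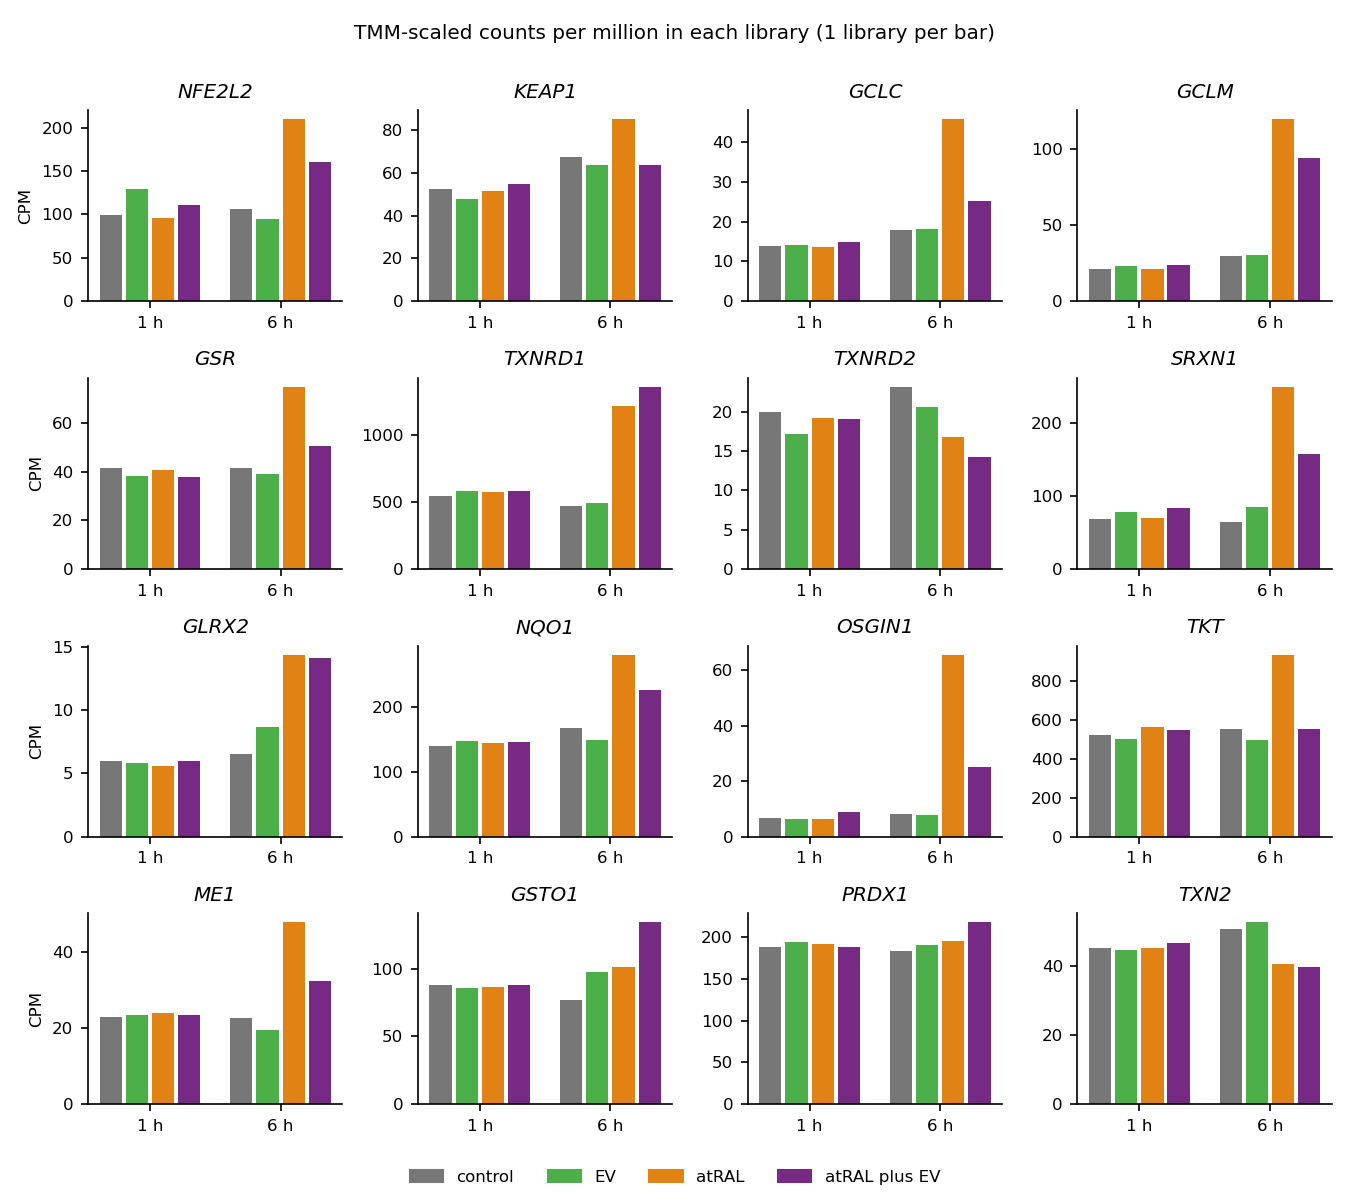
TMM-scaled CPM of 16 members in each of the 8 libraries, 1 bar per library, grouped by time and coloured by treatment. GCLM (94.4 and 120 CPM), TXNRD1 (1220 and 1360 CPM) and OSGIN1 (25.1 and 65.6 CPM) stand out in the 6 h libraries with atRAL, while PRDX1 stays between 183 and 217 CPM.

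Grouped across roles, 14 of 16 members on a list of NRF2 targets drawn from general knowledge rose and 0 fell. PRDX1 and ABCC3 were not called. Among those that rose, the calls of GCLC, SRXN1, PGD, TKT, ABCC1 and ABCC2 ended when any single 1 h library was dropped. Of all genes, 15.9% were called higher and 14.2% lower. The median change of the 16 was 0.65, beside -0.01 over all genes. This list is not complete, and it was chosen with earlier results of these data known. It holds none of the 10 glutathione transferases, of which 2 rose, 1 fell and 7 were not called. Of the 5 selenoproteins, whose active site holds selenocysteine, TXNRD1 rose, TXNRD2 and GPX1 fell, and GPX3 and GPX4 were not called. Of the 5 mitochondrial members, GLRX2 and SOD2 rose, TXN2 and TXNRD2 fell, and PRDX3 was not called. By levels alone, both atRAL libraries stood above both others at 6 h in 27 members and below in 10 (29.8% and 29.9% of all genes). At 1 h this held for 9 and 0 members (13.8% and 14.1% of all genes).

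The effect of atRAL at 6 h minus that at 1 h was tested as a difference within the same fit. It was called positive for 11 members and negative for 2, against 7.98% and 5.43% of all genes. The positive ones were GCLM (1.77), TXNRD1 (1.38), NFE2L2 (1.02), GLRX2 (0.95), ME1 (0.87), NQO1 (0.66), GSR (0.64), GPX8 (0.45), GSTO1 (0.43), TALDO1 (0.42) and MGST1 (0.40). The negative ones were TXNRD2 (-0.55) and TXN2 (-0.39). OSGIN1, GCLC and SRXN1, whose libraries with and without EV lay farther apart, were not called. With any single 1 h library dropped, the 1 h effect rests on 1 pair of libraries, and only GCLM and TXNRD1 kept the call. In these fits the share of all genes called fell to a small part of the shares above, so the loss was not limited to the members.

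The libraries with atRAL were also set against each other over time, a comparison that shares its 6 h atRAL libraries with the one above. With atRAL present, 16 members were higher at 6 h than at 1 h and 2 lower, against 11.6% and 8.64% of all genes. GCLM (2.22 ± 0.14, adjusted p = 7.8e-04), GLRX2 (1.30 ± 0.16, adjusted p = 0.0039) and TXNRD1 (1.16 ± 0.09, adjusted p = 0.001) had the smallest adjusted p-values. The calls of KEAP1 and GSTM4 were made in this comparison and in no other: KEAP1 was higher (0.47 ± 0.13, adjusted p = 0.049) and GSTM4 lower (-0.45 ± 0.12, adjusted p = 0.039). KEAP1 also stood 0.39 ± 0.13 higher at 6 h without atRAL (adjusted p = 0.23). Both calls lay near the threshold. The GSTM4 call ended when any single library of the 8 was dropped, with changes that stayed between -0.48 and -0.43. The KEAP1 call ended for 6 of them, all but the atRAL plus EV libraries, with changes from 0.21 to 0.73 over the 8 fits. It also ended under the other scalings. Without atRAL, edgeR called 0 members between the times (0.0293% of all genes higher and 0.129% lower). DESeq2 and limma-voom also called 0. Of the 46 members, 4 (KEAP1, GCLM, TXNRD1 and GLRX) had an unadjusted p under 0.05, as did 2733 of the 17044 genes. The 18 calls with atRAL became 7 with 6 h control or 6 h EV dropped, 9 with 1 h EV dropped, and 11 with 1 h control or 6 h atRAL dropped. With a library without atRAL dropped, the shares over all genes fell too, to 5.54% to 6.52% higher and 3.94% to 4.72% lower.

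EV changed few members beyond the spread. At 6 h, with atRAL allowed for, GSTO1 was the 1 member called, higher by 0.37 ± 0.07 (adjusted p = 0.0497), and 0 were called lower. Over all genes, 1.09% were called higher and 0.61% lower. An unadjusted p under 0.05 was found for 12 of the 46 members and for 3175 of the 17044 genes. The GSTO1 call lay at the threshold and ended when any single library other than 6 h control and 6 h EV was dropped (adjusted p up to 0.24). IDH1 (-0.42 ± 0.10, adjusted p = 0.072), ME1 (-0.40 ± 0.10, adjusted p = 0.093), TKT (-0.46 ± 0.13, adjusted p = 0.13), GSR (-0.33 ± 0.11, adjusted p = 0.18) and NFE2L2 (-0.28 ± 0.09, adjusted p = 0.14) had lower values with EV that did not pass. Dropping 6 h control or 6 h EV leaves the EV effect at 6 h to the libraries with atRAL, and 10 members were then called, 1 higher and 9 lower. Of all genes, 5.38% were then called higher and 4.77% lower without 6 h control, and 5.4% and 4.85% without 6 h EV. At 1 h edgeR, DESeq2 and limma-voom called 0 members for EV (0.182% of all genes higher and 0.0235% lower by edgeR). NFE2L2 was the 1 member with an unadjusted p under 0.05 there, at 0.29 ± 0.09 (adjusted p = 0.64), beside 771 of the 17044 genes.

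Whether EV altered the response to atRAL was examined over both times and at 6 h. Over both times, edgeR called 0 members for EV in the presence of atRAL, 0 in its absence, and 0 for the difference, and called 0% of all genes in each. DESeq2 and limma-voom also called 0 members. An unadjusted p under 0.05 was found for 1 member (GSR, -0.34 ± 0.12), 0 and 0. Of the 17044 genes, 531, 396 and 194 had one. For OSGIN1 the difference was -0.42 ± 0.72, for SRXN1 -0.52 ± 0.30 and for GCLC -0.39 ± 0.32. With atRAL, 6 members were called lower with EV once 1 h atRAL was dropped, when 1.07% of all genes were called lower and 1.72% higher. The number was 4 once 1 h atRAL plus EV was dropped (0.767% of all genes lower and 0.953% higher). In both cases the difference was called lower for 2 members (0.315% and 0.22% of all genes).

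An interaction of atRAL and EV at 6 h was also fitted, chosen after the data were seen, with the interaction at 1 h as the measure of scatter (1 residual degree of freedom). It compares the response to atRAL with EV against that without EV. By edgeR's quasi-likelihood test 3 members were called, all with a smaller response with EV, and 0 with a larger one, against 0.892% and 0.792% of all genes. They were SRXN1 (-1.06 ± 0.13, adjusted p = 0.0015), GCLC (-0.88 ± 0.17, adjusted p = 0.025) and OSGIN1 (-1.31 ± 0.25, adjusted p = 0.034). TKT stood at -0.59 ± 0.13 (adjusted p = 0.051). DESeq2 called 2 members and limma-voom 4, all lower (0.505% and 0.845% of all genes lower). By edgeR, 8 of the 46 members and 1982 of the 17044 genes had an unadjusted p under 0.05. Each 6 h condition is 1 library, and no library can be left out of this fit, so whether 1 library made these calls was not tested. At 1 h, the response with EV minus that without EV, from single libraries, was 0.58 for OSGIN1, 0.12 for GCLC and 0.03 for SRXN1. For OSGIN1 this exceeded the SE of the 6 h fit. The ratios of single libraries behind the fit follow, without a test of their own.

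Without EV, atRAL at 6 h against its control gave log2 ratios of 2.99 for OSGIN1, 2.00 for GCLM, 1.96 for SRXN1, 1.37 for TXNRD1 and 1.35 for GCLC. With EV, atRAL plus EV against EV gave 1.68, 1.63, 0.90, 1.47 and 0.47 for the same genes. TXNRD1 thus had the larger ratio with EV and the other 4 the smaller. TKT stood at 0.75 without and 0.17 with EV, IDH1 at 0.52 and 0.17, GSR at 0.85 and 0.38, GLRX2 at 1.14 and 0.70, ME1 at 1.07 and 0.74, and NFE2L2 at 0.99 and 0.77. Of the 22 members called higher at 6 h, 17 (77.3%) had the smaller ratio with EV, near the 74.7% of all 2718 genes called higher. Set directly against each other, atRAL plus EV lay below atRAL alone in 18 of the 22 (81.8%), against 67% of the 2718 genes. It lay lower by more than 0.5 on the log2 scale in 8 of the 22 (36.4%), against 15% of the 2718 genes. Those 8 were OSGIN1 (-1.39), GCLC (-0.86), TKT (-0.76), SRXN1 (-0.67), IDH1 (-0.60), GSR (-0.56), ME1 (-0.56) and ABCC2 (-0.55). The other 4 went the other way, namely GSTO1 (0.41), GLRX (0.40), TXN (0.18) and TXNRD1 (0.16). At 1 h the same ratio was below 0 in 8 of the 22 (36.4%) and in 46.1% of the 2718 genes.

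**Figure D4:**
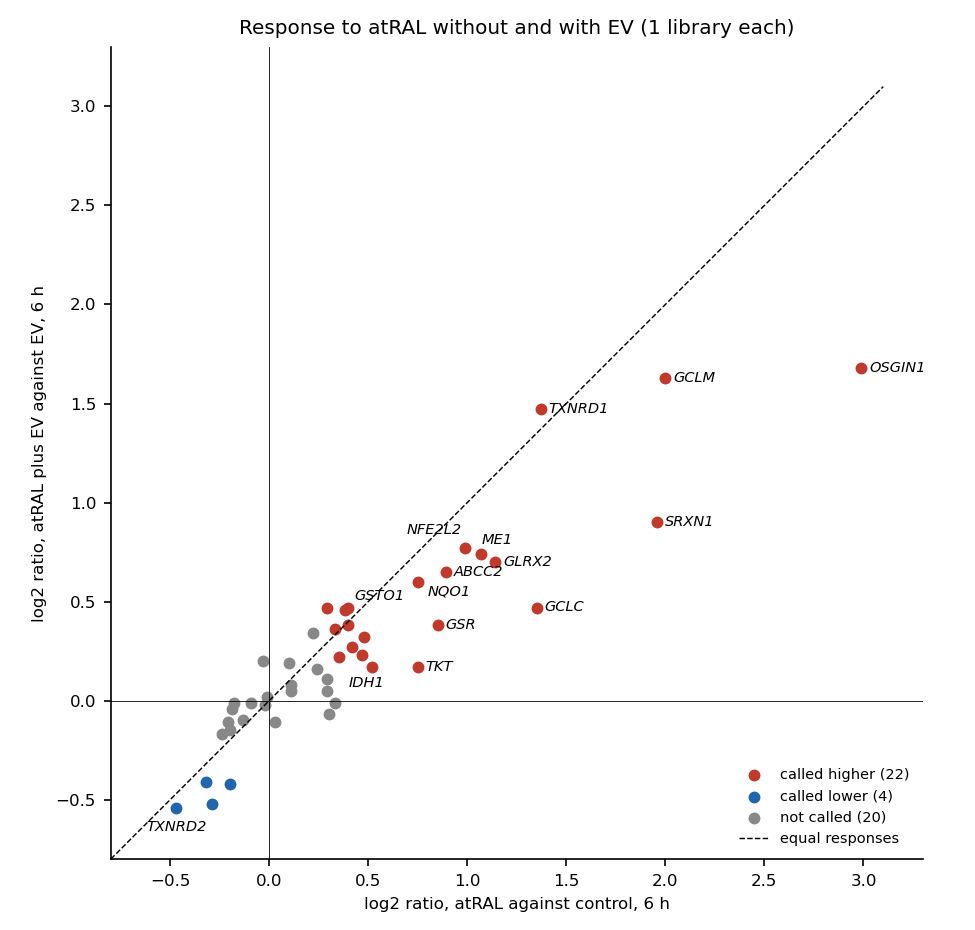
Log2 ratio of atRAL against control (horizontal) and of atRAL plus EV against EV (vertical) at 6 h for the 46 tested members, 1 library per condition; the dashed line marks equal responses and colours mark the calls for atRAL at 6 h. OSGIN1 (2.99 and 1.68), SRXN1 (1.96 and 0.90), GCLC (1.35 and 0.47) and TKT (0.75 and 0.17) lie below the line, and TXNRD1 (1.37 and 1.47) lies just above it.

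Genes around the members were read from further lists in the same 6 h comparison. Of 11 tested genes of cystine uptake and glutathione turnover, 4 rose and 1 fell (15.9% of all genes were called higher and 14.2% lower), and their median was 0.05. SLC7A11, the cystine carrier, read 55.9, 54.2, 516 and 388 CPM (3.02 ± 0.10, adjusted p = 1e-05), and its partner chain SLC3A2 112, 133, 864 and 457 CPM (2.36 ± 0.35, adjusted p = 0.021). CHAC1, which breaks glutathione down inside the cell, read 1.29, 0.98, 85 and 77.9 CPM (6.17 ± 0.13, adjusted p = 1.3e-06). GGT1, which breaks it down outside, rose from a low level (1.28 ± 0.33, adjusted p = 0.022). GGCT, which acts downstream in glutathione breakdown, was the 1 that fell (-0.38 ± 0.11, adjusted p = 0.029). Of 17 tested partners and other targets of NRF2, 10 rose and 0 fell (against the same shares of all genes), with a median of 0.63. HMOX1, heme oxygenase, read 32.2, 30.7, 1160 and 569 CPM (4.69 ± 0.30, adjusted p = 0.0017). SQSTM1, an autophagy receptor that binds KEAP1, rose by 2.24 ± 0.25, and the NRF2 partners MAFF and MAFG by 1.79 ± 0.09 and 1.78 ± 0.10. MAFF read 7.01, 10.5, 23.7 and 37.4 CPM at 6 h and 22.1, 44.6, 24.3 and 43.8 CPM at 1 h. Its 6 h libraries without atRAL thus lay below all its 1 h libraries, and those with atRAL lay within the 1 h range. At 1 h, MAFF was also higher with EV, both with and without atRAL. For HMOX1, SQSTM1 and SLC3A2 the library with atRAL plus EV lay between the controls and atRAL alone, whereas MAFF read 23.7 CPM with atRAL and 37.4 CPM with atRAL plus EV, and UGDH 171 and 235 CPM.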

How the data were processed

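RNA was extracted from RPE-1 cells with TRIzol and made into stranded mRNA libraries (TruSeq), per the labels' protocols. The table holds read counts per gene in whole, unscaled numbers as the authors deposited them, per the file headers. FPKM and TPM, which the authors computed before deposition, stand beside them, per the file headers. HISAT2 2.1.0, StringTie 2.1.3b and GRCh38 are named in the submitters' processing notes without their roles. Which counter, annotation, filter and strand setting were used is not given in the sources used here, so reads of overlapping genes (16 of the 47 members overlap another gene of the table) cannot be told apart. Columns of per-sample values left unused numbered 0 among the counts, FPKM and TPM.

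Genes were kept by filterByExpr (minimum count 10, grouped by time and atRAL), scaled by TMM and tested by the robust quasi-likelihood F test of edgeR 4.0.16 in R 4.3.3. The tests were two-sided, adjusted by the method of Benjamini and Hochberg over all 17044 genes, and called at an adjusted p under 0.05. One model holds time and, at each time, an atRAL and an EV term, and counts any atRAL-by-EV interaction at 1 time as scatter (2 residual degrees of freedom, biological coefficient of variation 9.66%). It gave the atRAL and EV effects. The other holds the 4 combinations of time and atRAL with EV within atRAL status, and counts a change of the EV effect with time as scatter (2 residual degrees of freedom, 13.9%). It gave EV with and without atRAL and the changes with time. The 10 comparisons share libraries, so their calls are not independent. Single pairs are log2 ratios of scaled CPM (prior count 2). The floor of 3 counts covers counting error only.

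Alternatives were other scalings, no filter or a minimum count of 50, DESeq2 1.42.0, limma-voom (limma 3.58.1), limma on log2(FPKM + 1) and log2(FPKM + 0.1), each library left out, single times, no EV term and, chosen after the data were seen, an atRAL-by-EV interaction at 6 h added to the first model (1 residual degree of freedom, 7.03%). The code was tested on simulated data. Levels in every library are given for members called for atRAL at 6 h with a change of at least 0.5 on the log2 scale, members called elsewhere, both regulators and the most abundant member of any role left; values for some others were added after they were seen. Of each further list, up to 4 called genes with the largest change are named, and GGCT and UGDH are named beyond this rule. The members, lists and tests were chosen with earlier results of these data known. GSTT1, on 1 further list, was not matched by symbol. Promoter sequences and positions are from RefSeq, GRCh38.p14.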

Additional observations from a re-analysis of the deposited data

Results flagged for a closer look

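For 13 members the effect of atRAL at 6 h differed from that at 1 h by the test of the difference itself (edgeR's quasi-likelihood test, adjusted p under 0.05). Over all genes, 7.98% were called higher and 5.43% lower. For all but GCLM and TXNRD1 the call ended when any single 1 h library was dropped. The 6 h effect minus the 1 h effect on the log2 scale was 1.77 for GCLM, 1.38 for TXNRD1, 1.02 for NFE2L2, 0.95 for GLRX2, 0.87 for ME1, 0.66 for NQO1 and 0.64 for GSR. It was 0.45 for GPX8, 0.43 for GSTO1, 0.42 for TALDO1 and 0.40 for MGST1, and negative for TXNRD2 (-0.55) and TXN2 (-0.39). For all 13 the 1 h effect itself did not pass the test.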

How the results depend on the processing

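The 58 results of single members that were called in the main fits were recomputed under the alternatives, which gave 1039 values. None of these reversed, 757 kept their call and 282 lost it. Only called results were recomputed, mostly from the same libraries, so a reversal was unlikely from the start. The 26 calls for atRAL at 6 h became 17 in the 6 h libraries alone and 15 to 25 with 1 library left out. The 1 call for EV at 6 h became 0 with upper quartile scaling, library totals, no filter, both FPKM fits and the 6 h libraries alone, 2 (1 higher, 1 lower) with a minimum count of 50 and with DESeq2, and 0 to 10 with 1 library left out. The 13 calls for the difference between the times became 6 with no filter, 7 on log2(FPKM + 1), 8 on log2(FPKM + 0.1), and 2 to 19 with 1 library left out. With 1 library left out, the 0 calls for time without atRAL ranged from 0 to 2. For EV with atRAL, and for its difference from EV without atRAL, no such range is given. With a library with atRAL left out, EV with atRAL rests on 1 pair of libraries. The 18 calls for time with atRAL ranged from 7 to 16. The cause of these changes was not tested, except that a library left out leaves fewer residual degrees of freedom. DESeq2 called 23 members for atRAL at 6 h and limma-voom 26. No paired analysis was possible because each condition has 1 library. With the interaction fitted at 6 h alone, chosen after the data were seen, the 0 calls for that difference became 3 (0 higher, 3 lower). ABCC2 stayed below 2 CPM and GPX7 had no counts, and mRNA levels say nothing of glutathione, NADPH or enzyme activity.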

Other observations

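Further genes of the same systems, in the comparison of atRAL with no atRAL at 6 h, moved in both directions. Of 18 tested thioredoxin, glutaredoxin and repair genes outside the members, 4 rose and 6 fell, with a median log2 change of -0.19; over all genes, 15.9% were called higher and 14.2% lower, which also applies to the lists that follow. TXNIP, which binds and inhibits thioredoxin, read 255, 193, 41.8 and 23.5 CPM in the control, EV, atRAL and atRAL plus EV libraries of 6 h, and fell by 2.82 ± 0.13 (edgeR, adjusted p = 2.6e-05). SESN2, a sestrin induced by stress, rose from 9.95 and 9.27 CPM to 218 and 161 CPM (4.29 ± 0.11, adjusted p = 1.8e-06). NXN, nucleoredoxin, and MSRB1, a selenoprotein that repairs oxidised methionine, fell by 1.46 ± 0.28 and 0.80 ± 0.15.

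Of 14 tested NADPH enzymes outside the members, 1 rose and 3 fell. MTHFD2, a mitochondrial folate enzyme, read 64.6, 74.1, 444 and 342 CPM (2.49 ± 0.14, adjusted p = 8.3e-05). ME3, MTHFD1 and IDH2 fell by 0.34, 0.28 and 0.26. Of 6 tested peroxidases and transferases outside the members, 2 rose and 2 fell: PTGES, prostaglandin E synthase, read 0.775, 0.714, 20.7 and 6.02 CPM (3.95 ± 0.48, adjusted p = 0.0041), GSTO2, which lies beside GSTO1, rose by 1.18 ± 0.14, and GSTT2B and GSTCD fell by 0.44 and 0.39.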
